A study of Mus musculus with 9 samples.

Results

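The vanins are enzymes that split pantetheine, a breakdown product of coenzyme A, and *Vnn1* and *Vnn3* are the vanin genes measured here, 2 of the 54059 genes in the deposited table. The pair was selected on the measured values of these same libraries, because *Vnn3* was much lower in macrophages given the inhibitor SHP099. The values of both genes in the comparisons that use the SHP099 libraries are therefore given as a description, with no test.

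RNA was sequenced from adherent peritoneal macrophages of C57BL/6 mice, 8 weeks old by the sample labels, that were collected 3 days after an injection of 1 ml starch broth. By the study's methods, the cells of all groups were exposed *in vitro* to imiquimod (IMQ), a TLR7 agonist, for 4 h. The wild-type group got IMQ alone, the M-Shp2-/- group came from mice in which Cre driven by *Lyz2* deletes a floxed *Shp2* gene, and the SHP099 group was wild-type cells pretreated for 2 h with 10 µM of this allosteric inhibitor of the phosphatase SHP2. Each group has 3 libraries, with 39842923 to 50981144 reads behind the values of each. *Lyz2*-cre is active in granulocytes as well as in monocytes and macrophages. The labels do not say whether the 3 replicates of a group came from separate mice, so each test measures the spread between these samples. Both comparisons with wild type use the same 3 wild-type libraries.

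Vanins cleave pantetheine into pantothenate, a B vitamin that cells use to build coenzyme A, and cysteamine, a small thiol that can be oxidised toward taurine and that affects the balance of glutathione. VNN1 is held on the cell surface by a lipid anchor, and in liver its gene is a known target of the fatty acid receptor PPAR alpha. *Vnn3* encodes a close relative of the same enzyme, which in the mouse lies beside *Vnn1* on the chromosome.

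The values are FPKM, fragments per kilobase of transcript scaled to library depth, as deposited by the authors. Tests are limma fits on log2(FPKM + 1) over the 11450 genes whose mean FPKM reached 1, and a gene is called where its adjusted p is no higher than 0.05. A log2 difference is the mean of the first group minus the mean of the second on that scale. *Vnn3* passed the filter on low values and *Vnn1* did not.

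The knockout was checked first through *Ptpn11*, the gene that encodes SHP2. *Ptpn11* was at 45.8, 44.0 and 39.99 FPKM in the wild-type libraries, at 18.6, 17.8 and 18.9 in the M-Shp2-/- libraries and at 43.0, 42.1 and 39.6 in the SHP099 libraries. All 3 M-Shp2-/- libraries were thus below every other library. *Ptpn11* fell by 1.19 on the log2 scale in M-Shp2-/- cells (SE 0.0956, limma adjusted p 0.0168, n = 3 and 3). Over 16 alternative settings its adjusted p ran from 0.00186 to 0.196, and the call was lost in 5 of them, which were the replicate block and the fits without wild-type replicate 1, without wild-type replicate 2, without M-Shp2-/- replicate 1 and without M-Shp2-/- replicate 2. Its log2 difference in SHP099 cells was −0.05 (adjusted p 0.729).

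M-Shp2-/- replicate 3 stands apart from its group. Across the log2 values of all genes tested, it correlated with the other libraries of its group at r = 0.954 to 0.967, with the SHP099 libraries at r = 0.975 to 0.984 and with the wild-type libraries at r = 0.962 to 0.980, the highest of these with wild-type replicate 2. The other M-Shp2-/- libraries correlated with each other at r = 0.992 and with the SHP099 libraries at r = 0.970 to 0.978. These correlations are across genes, which are not independent replicates. In that library 260 genes were at least 1 log2 unit below the mean of the other M-Shp2-/- libraries and 450 were at least 1 log2 unit above it. Its *Ptpn11* value of 18.9 FPKM is that of its group. Without it the log2 difference of *Ptpn11* from wild type was −1.21 (adjusted p 0.0473). The labels do not say whether this sample was handled differently from the others, which limits what the mean and SD of the M-Shp2-/- group stand for, and the main results for *Vnn3* are given with and without it.

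*Vnn3* (ENSMUSG00000020010) lies on chromosome 10 at 23851462 to 23869843 on the + strand of GRCm38, with 7 exons, and its annotated transcript has 1811 bases, of which 1500 are coding. *Vnn1* (ENSMUSG00000037440) follows at 23894688 to 23905343 on the same strand, 24844 bases after the end of *Vnn3*. *Vnn1* has 7 exons in its coding transcript of 2416 bases, with 1536 coding bases, and a shorter transcript of 717 bases. The annotation places 0 other genes over either of them. The coding sequences of both are 68.8% identical over 1461 aligned bases. The longest run of bases that their transcripts share is 12, and they share 0 windows of 50 bases, so that a long stretch common to both is absent from these transcripts. For comparison, the coding sequence of *Btd*, which encodes the related amidase biotinidase, is 63.4% identical to that of *Vnn3* and 66.4% identical to that of *Vnn1*.

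The RefSeq promoter table (GRCm38.p6) held 1 of the 2 genes, *Vnn3*. Its 250 bases before the transcript start, chr10:23851212-23851461 on the + strand, are shown because *Vnn3* carries the difference described here, with the bases that match a C/EBP motif in capitals.

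Vnn3 promoter: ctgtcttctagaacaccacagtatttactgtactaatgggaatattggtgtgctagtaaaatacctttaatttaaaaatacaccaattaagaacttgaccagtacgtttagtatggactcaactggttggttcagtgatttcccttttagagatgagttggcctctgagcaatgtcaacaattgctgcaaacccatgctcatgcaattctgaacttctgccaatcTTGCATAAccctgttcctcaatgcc

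The motifs were searched on both strands of this window and of 32851 promoters of the same length. The C/EBP motif, TTGCNNAA, matched once on the + strand, as TTGCATAA, from 25 to 18 bases before the start, and 9.56% of the promoters hold such a match. The window held 0 matches to the other 8 motifs. These were AP-1, TGANTCA, present in 6.75% of promoters, CRE, TGACGTCA, in 1.55%, NF-kB, GGNANTTCC or GGGANTTTC, in 4.73%, and STAT, TTCNNNGAA, in 7.02%. The rest were the PPAR direct repeat, 2 copies of AGGTCA with 1 base between them, in 0.0335%, the TATA box, TATAAA, in 12.4%, the GC box, GGGCGG, in 32.7%, and the E-box, CACGTG, in 6.02%. C and G make up 39.2% of the window, against a median of 52.4% over all promoters. A match of letters is a description of the sequence and no evidence of a bound site, and binding was not measured.

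*Vnn3* was at 58.4, 42.8 and 48.5 FPKM in the wild-type libraries, a mean of 49.9 ± 7.86 (SD, n = 3). In the SHP099 libraries it was at 9.21, 10.3 and 9.67 FPKM, a mean of 9.73 ± 0.546 (SD, n = 3). In the M-Shp2-/- libraries it was at 40.3, 51.6 and 9.33 FPKM, a mean of 33.7 ± 21.9 (SD, n = 3). All 3 SHP099 libraries were below all 3 wild-type libraries, while M-Shp2-/- replicates 1 and 2 lay within or just below the wild-type range and replicate 3 lay among the SHP099 libraries. From high to low, the order was wild-type replicate 1, M-Shp2-/- replicate 2, wild-type replicates 3 and 2, M-Shp2-/- replicate 1, SHP099 replicates 2 and 3, M-Shp2-/- replicate 3 and SHP099 replicate 1. The 9 libraries thus fall into a set of 5 at 40.3 FPKM or more and a set of 4 at 10.3 FPKM or less, with none between. In bulk RNA, fewer cells that express *Vnn3* and less *Vnn3* RNA per cell cannot be told apart.

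These levels rest on many reads. The recovered reads of *Vnn3* numbered 4691, 3955 and 3739 in the wild-type libraries, 3152, 3845 and 770 in the M-Shp2-/- libraries, and 732, 743 and 768 in the SHP099 libraries. At the wild-type mean, *Vnn3* was higher than 80.0% of the genes tested, and at the M-Shp2-/- mean it was higher than 70.4% of them. At the SHP099 mean it was higher than 41.2% of them.

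*Vnn1* was close to the limit of what these libraries can show. Its FPKM was 0.0144, 0.125 and 0 in the wild-type libraries, 0.0148, 0.0155 and 0.0140 in the M-Shp2-/- libraries, and 0.131, 0.0801 and 0.0291 in the SHP099 libraries. Those values stand for 1, 10 and 0 reads, then 1, 1 and 1, then 9, 5 and 2. The floor of 3 reads in a library corresponds to 0.0376 to 0.0481 FPKM for *Vnn1*, and it covers counting error only. Wild-type replicate 2 and SHP099 replicates 1 and 2 were above it, and the other 6 libraries were below. With 11, 3 and 16 reads in the wild-type, M-Shp2-/- and SHP099 groups, a difference between groups was not detectable for *Vnn1* at this depth, and no fold is given. Per length of transcript, *Vnn1* made up at most 1.40% of the summed FPKM of both genes in any library, so the vanin RNA measured in these cells was almost entirely *Vnn3*.

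**Figure D1:**
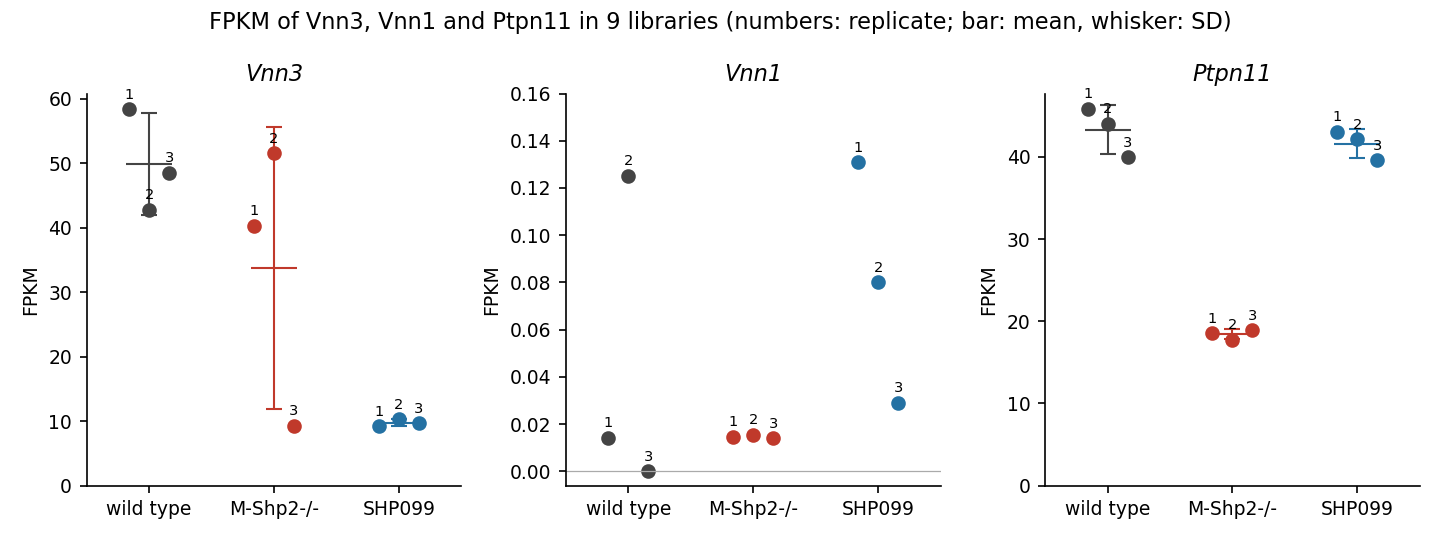
FPKM of *Vnn3*, *Vnn1* and *Ptpn11* (vertical axes, each panel with its own scale) in the 9 libraries by group, with each point numbered by replicate, bars for means and whiskers for SD in *Vnn3* and *Ptpn11*. For *Vnn3*, M-Shp2-/- replicate 3 at 9.33 FPKM sits beside the SHP099 libraries at 9.21 to 10.3, while for *Ptpn11* it sits with its own group at 17.8 to 18.9.

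The comparison of SHP099 with wild type describes what inhibition of SHP2 before IMQ goes with in these cells. The mean of *Vnn3* was 5.13-fold higher in wild-type than in SHP099 cells, and the lowest wild-type library was 4.16-fold above the highest SHP099 library. On the log2 scale the difference was −2.24 (SE 0.126, n = 3 and 3), where the median of all genes tested was 0.13. Of the 11450 genes, 18 had a lower log2 difference than *Vnn3*. Just below it in this order were *Ms4a4c* at −2.39, *Ptgs2* at −2.33 and *Dab2* at −2.31, and just above it were *Plet1* at −2.24, *Itgax* at −2.23 and *Il23a* at −2.22. *Vnn3* differed from these neighbours by less than the SE of its own difference, apart from *Ms4a4c*. Across all genes, 6.77% had all 3 SHP099 libraries below all 3 wild-type libraries, a share from which nothing is read for a gene that was chosen on this contrast.

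The comparison of M-Shp2-/- with wild type asks what loss of SHP2 in myeloid cells goes with, and the rule that chose the genes did not use it, although it shares the wild-type libraries. *Vnn3* was not called. Its log2 difference was −0.84 (SE 0.580, limma adjusted p 0.545, n = 3 and 3), with the mean 1.48-fold higher in wild type. Of the genes tested, 10 (0.0873%) were called in this comparison, 0 of them higher. An exact two-sided permutation test of *Vnn3* over the 6 libraries gave p = 0.4, and the smallest p that 3 against 3 can give is 0.1. Without M-Shp2-/- replicate 3 the log2 difference was −0.12 (SE 0.171, adjusted p 0.684, within a range of 0.385 to 0.890 over all alternatives run). The M-Shp2-/- replicates 1 and 2 alone, at a mean of 46.0 FPKM, were close to the wild-type mean of 49.9.

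The spread of *Vnn3* within the M-Shp2-/- group was among the widest of any gene. The SD of its log2 values there was 1.27, larger than that of 99.1% of the genes tested, whose median SD was 0.18. In the wild-type group its SD was 0.22, near the median of 0.19, and in the SHP099 group it was 0.07, below the median of 0.12. Relative to the mean FPKM, the SD was 15.7% in wild-type, 64.9% in M-Shp2-/- and 5.62% in SHP099 libraries. M-Shp2-/- replicate 3 was 4.93-fold below the mean of replicates 1 and 2 of its group, a log2 difference of −2.17, and 18 genes of 11450 (0.157%) had a lower one. The size of this gap within 1 group is close to that of the difference between SHP099 and wild type.

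The comparison of M-Shp2-/- with SHP099 sets loss of the gene beside inhibition of its product. *Vnn3* was 1.40 higher on the log2 scale in M-Shp2-/- cells (SE 0.569, n = 3 and 3), and 2.12 higher without M-Shp2-/- replicate 3 (SE 0.118, n = 2 and 3). The number of genes called in this comparison was 8 (0.0699%) with that library, 3 higher (0.0262%) and 5 lower (0.0437%), and 2277 without it. With that library and median-of-ratios scaling 7 were called, 5 higher and 2 lower, so the balance of directions turned. These values of *Vnn3* use the SHP099 libraries that chose it and carry no test.

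The scale of the table matters for small differences. Median-of-ratios scaling moved the median log2 difference of all genes by −0.14 in the M-Shp2-/- and by −0.13 in the SHP099 comparison with wild type. With this scaling the log2 difference of *Vnn3* was −0.996 in M-Shp2-/- cells and −2.38 in SHP099 cells, so that its direction held in both. Among all genes, 797 were called with SHP099 in the values as deposited (6.96%), of which 521 were higher (4.55%) and 276 lower (2.41%). With median-of-ratios scaling 575 were called, 200 of them higher and 375 lower, so the share of called genes that were higher went from 65.4% to 34.8%.

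The genes whose pattern was most like that of *Vnn3* were found by Pearson's r of log2(FPKM + 1) over the 9 libraries, which include the groups themselves. The 5 highest were *Parp8* (r = 0.990, Spearman's rho = 0.917), *Ddhd1* (0.987, 0.867), *Il18* (0.986, 1.000), *Itga5* (0.984, 0.883) and *St6galnac4* (0.983, 0.850). *Parp8* belongs to the ADP-ribosyltransferase family, *Ddhd1* encodes a phospholipase, *Il18* a cytokine of the interleukin-1 family, *Itga5* a chain of the fibronectin receptor and *St6galnac4* a sialyltransferase. *Il18* had exactly the order of *Vnn3* over the 9 libraries. *Il18* was at 22.2, 13.3 and 15.1 FPKM in wild-type, at 13.2, 18.2 and 4.77 in M-Shp2-/- and at 3.82, 5.45 and 5.02 in SHP099 libraries, with M-Shp2-/- replicate 3 among the SHP099 libraries. As *Il18* was chosen for its r with *Vnn3*, this position adds nothing to that of *Vnn3*. The 3 genes with the lowest r, which ran opposite to *Vnn3*, were *Trnp1* (−0.990), *Pnpla8* (−0.986) and *Lrrfip2* (−0.986).

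Among the genes tested, 125 had an r with *Vnn3* of at least 0.9 and 339 an r of −0.9 or below. With each group's mean taken off, these 5 genes still had r of 0.958 to 0.986 with *Vnn3*, within which M-Shp2-/- replicate 3 is the library far from its group. Without that library their r was 0.982 to 0.991. By Spearman's rho 1 of these 5 genes was among the 5 most like *Vnn3*, with group means taken off 0 were, and without M-Shp2-/- replicate 3 there were 4. These correlations describe 9 libraries in 3 groups and carry no p.

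**Figure D2:**
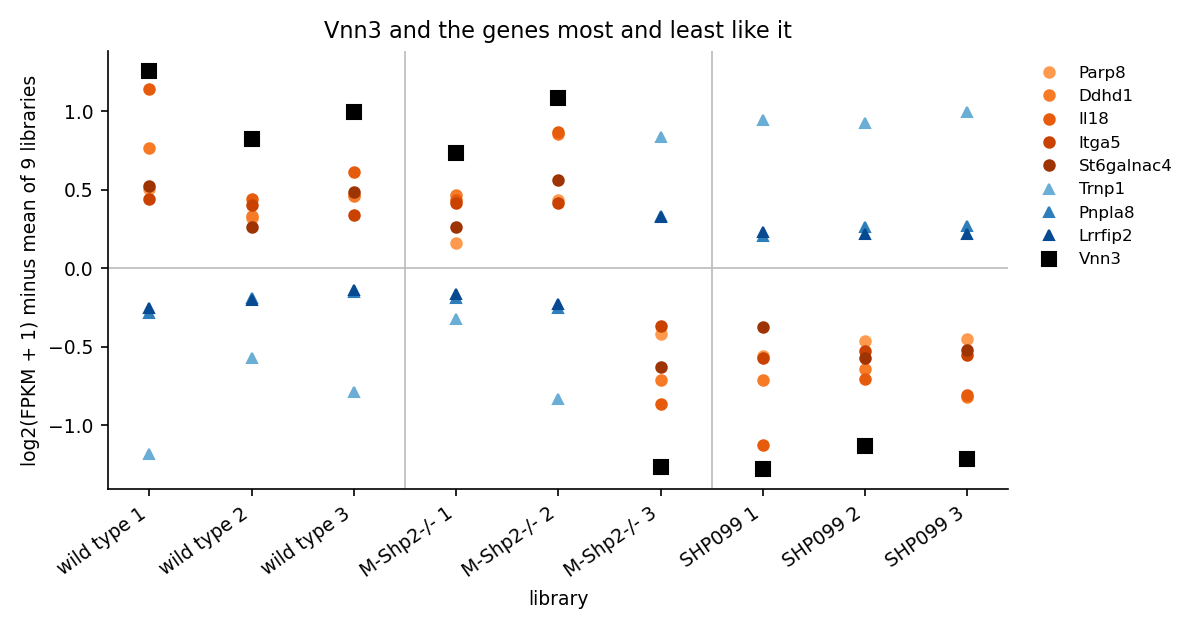
Log2(FPKM + 1) of *Vnn3* and of the 5 genes with the highest and the 3 with the lowest Pearson r, each centred on its mean over the 9 libraries (vertical axis), in each library (horizontal axis), with squares for *Vnn3*, circles for the like genes and triangles for the opposite ones. M-Shp2-/- replicate 3 lies among the SHP099 libraries in *Vnn3* and among or near them in the genes like it (r of 0.983 to 0.990). These genes were chosen for that r over the same libraries, so their position adds nothing to that of *Vnn3*.

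Most neighbours of *Vnn3* on the chromosome had no reads in these libraries. Within 500 kb of either vanin gene, the annotation holds 19 other protein-coding genes. Of these 16 were at 0 FPKM in all 9 libraries, among them 15 genes of the trace amine receptor (*Taar*) family. *Slc18b1*, whose start lies at −54.5 kb from that of *Vnn3*, ranged from 0.0174 to 0.688 FPKM. *Rps12*, a ribosomal protein gene, ranged from 220 to 317 FPKM and *Stx7*, an endosomal syntaxin gene, from 142 to 168. Neither was called, with log2 differences in SHP099 cells of −0.01 for *Rps12* (adjusted p 0.987) and −0.04 for *Stx7* (adjusted p 0.816), and in M-Shp2-/- cells of −0.03 (adjusted p 0.912) and 0.05 (adjusted p 0.797). The lowest values of *Rps12* were in M-Shp2-/- replicate 3 at 219.7 FPKM and SHP099 replicate 3 at 222 FPKM, against 243.5 in the lowest wild-type library, and the lowest of *Stx7* was in SHP099 replicate 2 at 142 FPKM.

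**Figure D3:**
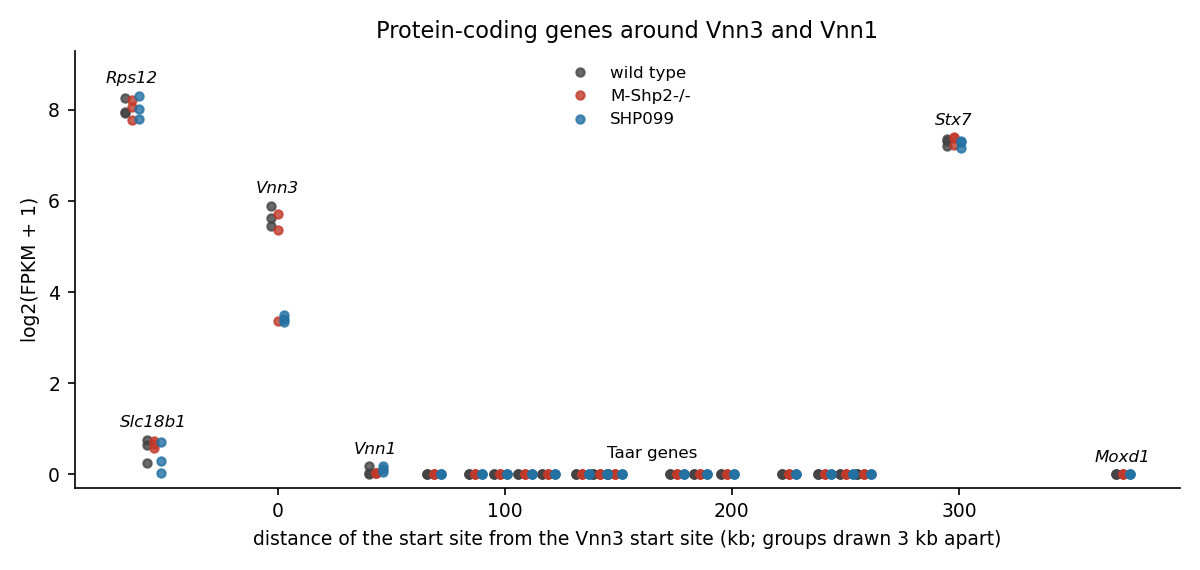
Log2(FPKM + 1) in each of the 9 libraries (vertical axis) of the vanins and the 19 other protein-coding genes within 500 kb, against the distance of their start from that of *Vnn3* in kb (horizontal axis), with points coloured by group. *Rps12* at −64.2 kb and *Stx7* at 298 kb have all groups together, *Vnn3* has 4 low libraries, and the *Taar* genes lie at 0.

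The substrates and products of the vanins link them to 6 lists of genes with 61 members, of which 43 were tested. In M-Shp2-/- against wild type, where *Vnn3* was not called, limma called 0 of the 43 (0.0873% of all genes), with 8 at an unadjusted p below 0.05, where 10.5% of all genes were, and 0 called by voom. The log2 difference was positive for all 43, where the median over all genes was 0.15. With median-of-ratios scaling it was positive for 35 of them, where that median was 0.01. Without wild-type replicate 3 it was positive for 38, and without M-Shp2-/- replicate 3 for 39. The share of all genes with a positive difference is not given here, so nothing is read from these counts. Without M-Shp2-/- replicate 3 limma also called 0, with 19 at an unadjusted p below 0.05, where 19.9% of all genes were. With SHP099, 8 of the 43 were called, 7 higher and 1 lower, where 6.96% of all genes were called, 4.55% higher and 2.41% lower. At an unadjusted p below 0.05 were 21 of the 43, where 26.7% of all genes were. Voom called 7, where it called 6.86% of all genes. With median-of-ratios scaling 5 were called, 3 higher and 2 lower, where 5.02% of all genes were called. All 8 calls were lost when any 1 of the SHP099 replicates was left out, where the number of called genes in the whole table went from 797 to between 47 and 116. They were also lost with no filter on low values, where 74 genes were called in all.

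Coenzyme A synthesis begins with the product of the vanins, pantothenate, and 9 of its 11 listed genes were tested. Their median log2 difference was 0.33 with SHP099 and 0.32 in M-Shp2-/- cells, beside 0.13 and 0.15 over all genes. With median-of-ratios scaling these were 0.21 and 0.20, beside 0.00 and 0.01 over all genes, and without wild-type replicate 3 the SHP099 median was 0.21. With SHP099 2 rose. *Coasy*, which encodes the enzyme of the last steps, rose from 7.59 ± 1.17 to 13.1 ± 2.03 FPKM (SD, n = 3 each), a log2 difference of 0.71 (adjusted p 0.0419, 0.0267 to 0.184 over 16 alternatives). *Slc25a16*, a mitochondrial carrier linked to coenzyme A, rose from 8.34 ± 0.914 to 14.8 ± 1.23 FPKM, a log2 difference of 0.76 (adjusted p 0.0209, 0.0167 to 0.120). The *Coasy* call was lost in 7 of the alternatives, also without the trend and without wild-type replicate 1 or 3, and that of *Slc25a16* in 4. Of the *Pank* genes, named for pantothenate kinase, 3 were tested and limma called 0 in either comparison with wild type (0 at an unadjusted p below 0.05 and 0 by voom). Over the 9 libraries *Pank2* was at 22.1 to 26.8, *Pank3* at 15.1 to 24.1 and *Pank4* at 19.1 to 23.7 FPKM. The name is not read as kinase activity of each protein, which was not measured. *Pank1*, not tested, was at 0.265 to 1.41 FPKM.

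Enzymes other than the vanins that take apart coenzyme A or its fragments were few, with 3 of 5 genes tested and 0 called by limma in either comparison with wild type (0 at an unadjusted p below 0.05 and 0 by voom in each). Their median was 0.26 with SHP099 and 0.37 in M-Shp2-/- cells, and 0.13 and 0.23 with median-of-ratios scaling. Without wild-type replicate 3 these medians were 0.06 and 0.17, and without M-Shp2-/- replicate 3 the latter was 0.62. The nudix hydrolases *Nudt19* and *Nudt7* ranged from 4.14 to 9.13 and from 0.959 to 3.39 FPKM. *Enpp1*, a phosphodiesterase, was at 7.08, 4.26 and 3.72 FPKM in wild-type, 7.50, 8.57 and 3.48 in M-Shp2-/- and 3.43, 3.74 and 2.64 in SHP099 libraries, so that M-Shp2-/- replicate 3 was the lowest of its group here as for *Vnn3*. *Enpp3*, not tested, was at 0.0162 to 4.47 FPKM, with the highest value in M-Shp2-/- replicate 3, against 0.332 and 0.0872 in replicates 1 and 2.

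The other product of the vanins, cysteamine, leads toward hypotaurine and taurine, and 4 of 9 genes on that list were tested. With SHP099 2 rose and the median was 0.47, and in M-Shp2-/- cells it was 0.27, which was 0.12 with median-of-ratios scaling. With no filter on low values the medians were 0.06 and 0.17. *Slc6a6*, the taurine transporter, rose from 396 ± 44.0 to 528 ± 13.0 FPKM, a log2 difference of 0.42 (adjusted p 0.0485, 0.0133 to 0.317 over 16 alternatives). *Ctns*, which exports cystine from lysosomes, rose from 27.8 ± 3.79 to 40.2 ± 1.24 FPKM, a log2 difference of 0.53 (adjusted p 0.0381, 0.0313 to 0.168). With median-of-ratios scaling neither was called (adjusted p 0.317 and 0.0629). The *Slc6a6* call was lost in 11 of the alternatives, also with the replicate block, by voom, in the joint fit of all 9 libraries, without the trend and without wild-type replicate 1 or 2. The *Ctns* call was lost in 7, also without the trend and without wild-type replicate 2. *Csad* at 5.51 to 11.7 FPKM and *Cdo1* at 0.323 to 3.91 FPKM, enzymes of taurine synthesis, were not called. *Ado*, the gene on this list for cysteamine dioxygenase, was not tested, at 0.0103 FPKM or less in the 9 libraries. The step that acts on cysteamine itself is thus hardly covered by these values.

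Of the 4 amidases related to the vanins, 3 were tested. In the comparisons of M-Shp2-/- and SHP099 with wild type, limma called 0 of them, with 1 and 2 at an unadjusted p below 0.05 and 0 called by voom. Over all genes, 10.5% and 26.7% were at an unadjusted p below 0.05 in these comparisons. *Btd* was at 8.24 to 12.69 FPKM, *Nit1* at 8.22 to 14.8 and *Nit2* at 4.35 to 7.90 over the 9 libraries. *Upb1* was at 0.0133 FPKM or less. Their median log2 difference was 0.34 with SHP099 and 0.23 in M-Shp2-/- cells, and 0.21 and 0.08 with median-of-ratios scaling. The M-Shp2-/- median was 0.09 without wild-type replicate 3, 0.15 without M-Shp2-/- replicate 2 and 0.35 without M-Shp2-/- replicate 3.

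Glutathione is the thiol pool that cysteamine is known to affect, and 5 of 7 genes for its synthesis, its reduction and the uptake of cystine were tested. With SHP099 2 rose, with a list median of 0.69, and in M-Shp2-/- cells the median was 0.29. The latter was 0.14 with median-of-ratios scaling, 0.56, 0.48 and 0.19 without wild-type replicates 1, 2 and 3, and 0.43 without M-Shp2-/- replicate 3. *Gclm*, the regulatory subunit of the enzyme of the first step, was at 102, 82.1 and 41.7 FPKM in wild-type, 143, 135 and 161 in M-Shp2-/- and 172, 181 and 162 in SHP099 libraries. It rose with SHP099 by a log2 difference of 1.27 (adjusted p 0.0490, 0.0118 to 0.188 over 16 alternatives). *Gsr*, glutathione reductase, rose from 163 ± 13.4 to 244 ± 13.3 FPKM, a log2 difference of 0.58 (adjusted p 0.0192, 0.0171 to 0.110). The *Gclm* call was lost in 9 of the alternatives, also with median-of-ratios scaling (adjusted p 0.0555), equal-sum scaling, a pseudocount of 0.1, without the trend and without wild-type replicate 2, and that of *Gsr* in 4. *Gclc*, the catalytic subunit beside *Gclm*, was at 24.6 to 56.8 FPKM and *Slc7a11*, the cystine importer, at 252 to 557, and neither was called. For *Gclm* the M-Shp2-/- libraries lay above all wild-type libraries with replicate 3 close to replicates 1 and 2, unlike *Vnn3*.

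PPAR receptors and their well known targets made up the longest list, with 19 of 25 genes tested. *Ppara*, the receptor for which *Vnn1* is a known target in liver, was at 0.0583 FPKM or less in the 9 libraries. With SHP099 1 gene rose and 1 fell, and the median was 0.09, which turned to −0.04 with median-of-ratios scaling and to −0.02 without wild-type replicate 3, and was 0.04 with no filter. In M-Shp2-/- cells the median was 0.23, which was 0.08 with median-of-ratios scaling and 0.13 without wild-type replicate 3. *Cd36*, which takes up fatty acids, was at 319, 233 and 198 FPKM in wild-type, 265, 299 and 264 in M-Shp2-/- and 156, 146 and 126 in SHP099 libraries. With SHP099 *Cd36* fell by 0.79 on the log2 scale (adjusted p 0.0454, 0.0204 to 0.170 over 16 alternatives), and M-Shp2-/- replicate 3 did not go with the SHP099 libraries as it did for *Vnn3*. *Rxrb*, a partner of the PPARs, rose from 25.2 ± 0.707 to 35.8 ± 2.21 FPKM, a log2 difference of 0.49 (adjusted p 0.0245, 0.0195 to 0.136), and was not called with median-of-ratios scaling (adjusted p 0.0742). Both calls were lost in 7 of the alternatives, also without wild-type replicate 1 or 2, and that of *Cd36* without the trend. *Plin2*, *Ucp2* and *Hadha*, at 213 to 509.7, 83.6 to 162 and 68.2 to 83.0 FPKM, were not called. *Pparg* was at 10.3, 3.997 and 6.24 FPKM in wild-type, 11.9, 14.8 and 2.89 in M-Shp2-/- and 3.28, 3.89 and 2.64 in SHP099 libraries, with M-Shp2-/- replicate 3 low as for *Vnn3*, and was not called. Other members were highest of the group in that library. *Angptl4*, not called, was at 16.5 FPKM there against 3.76 and 1.63 in replicates 1 and 2, and *Plin2* at 509.7 against 422 and 404.

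**Figure D4:**
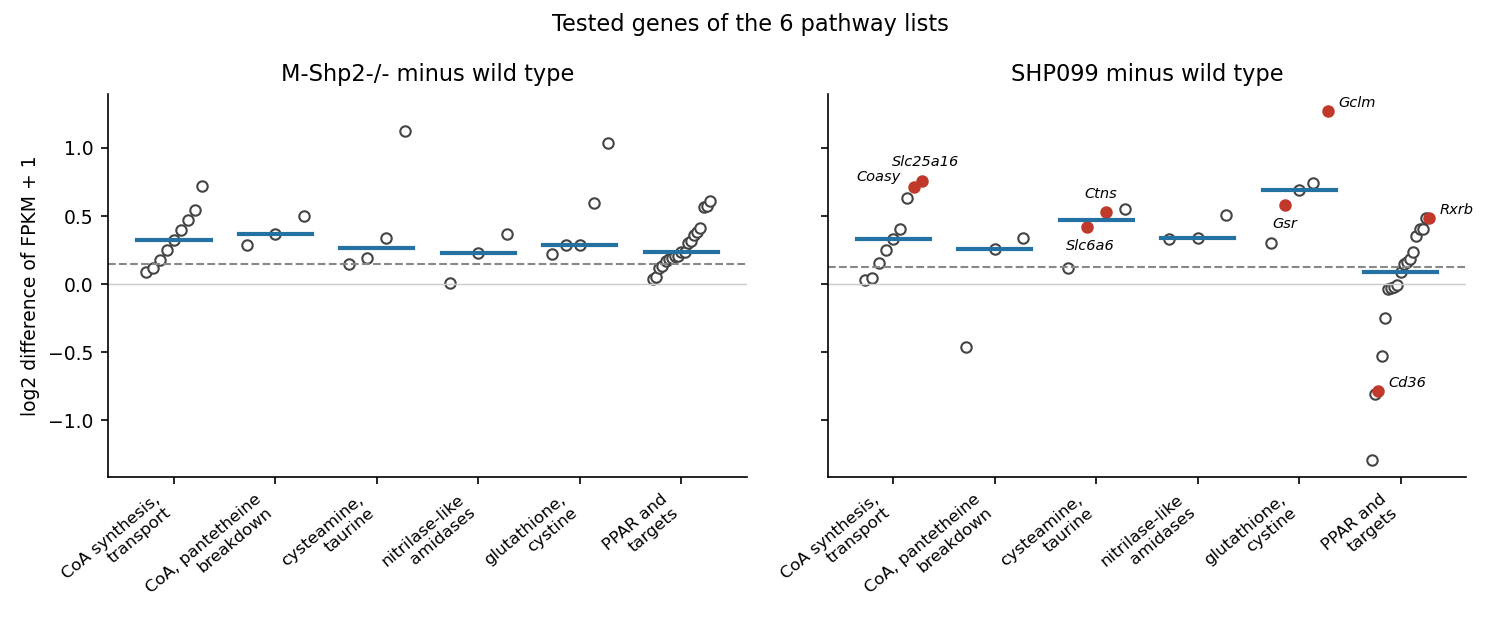
Log2 difference from wild type (vertical axis) of the 43 tested genes by list, for M-Shp2-/- (left) and SHP099 (right), with called genes filled red and named, list medians as blue bars and the median of all genes tested as a dashed line. In the left panel 0 genes are called, and in the right panel 7 are called higher and *Cd36* lower.

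The labelled cell type was checked against its markers. All 8 macrophage markers were tested, and *Lyz2*, the most abundant, was at 4743 to 10715 FPKM. Their summed FPKM was 10420.2, 13421 and 11189 in wild-type, 7595, 7468 and 8412 in M-Shp2-/- and 11778, 13005 and 13736 in SHP099 libraries. Most of this sum was *Lyz2* in every library, at a mean of 8540 FPKM in wild-type, 5004 in M-Shp2-/- and 10114.5 in SHP099 cells. Its log2 difference in M-Shp2-/- cells was −0.76 (limma adjusted p 0.388). The Cre of these mice is driven by *Lyz2*, and its part in this level was not tested. The lower M-Shp2-/- sum is therefore not read as fewer macrophages. With SHP099 1 of the 8, *Csf1r*, rose, by a log2 difference of 1.38 (adjusted p 0.0222, 0.00394 to 0.116 over 16 alternatives), and the call was lost with median-of-ratios scaling, with no filter and without any 1 of the SHP099 replicates. Among the M-Shp2-/- libraries, replicate 3 had the highest macrophage sum, most of it *Lyz2* at 5407 FPKM. *Cd14* at 1220 FPKM against 705 and 589 and *Csf1r* at 176 against 87.4 and 71.8 were also highest of the group there. So were *Itgam* at 111 FPKM against 52.1 and 45.8 and *Fcgr1* at 3.48 against 0.987 and 0.701. By contrast, *Cd68* at 1227 FPKM against 1603 and 1739.5 and *Adgre1* at 263 against 279.9 and 274 were lowest of the group there. In M-Shp2-/- cells limma called 0 of the 8, with 2 at an unadjusted p below 0.05, where 10.5% of all genes were, and 0 by voom. The summed FPKM of 10 markers of resident large peritoneal macrophages was 899, 1330.2 and 609.7 in wild-type, 1064, 1058 and 995 in M-Shp2-/- and 854, 763 and 765 in SHP099 libraries. Its most abundant members were *Fn1* and *Cd9*, which made up most of the sum in every library. The next by mean, *Prg4*, was at 4.66 to 18.8 FPKM over the 9 libraries. *Gata6* was at 0.380 to 2.97 FPKM and *Timd4*, not tested, at 0.139 to 1.63 FPKM. The sum thus says little about the other members. *Fn1* was at 315, 829 and 248 FPKM in wild-type, 326, 215 and 719 in M-Shp2-/- and 518, 438 and 476 in SHP099 libraries, so that M-Shp2-/- replicate 3 was the highest of its group. *Cd9* was at 562, 457 and 348 FPKM in wild-type, 711, 823 and 257 in M-Shp2-/- and 309, 308 and 259 in SHP099 libraries, with M-Shp2-/- replicate 3 low as for *Vnn3*, and its log2 difference with SHP099 was −0.62 (adjusted p 0.0793). Of the list 7 were tested and limma called 0 in either comparison with wild type, with 0 in M-Shp2-/- and 1 in SHP099 cells at an unadjusted p below 0.05 and 0 called by voom. Over all genes, 10.5% and 26.7% were at an unadjusted p below 0.05 there. The part of these cells in the level of *Vnn3* was not tested.

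The list of small peritoneal or monocyte-derived macrophages was mixed, with some members lower where *Vnn3* was low and others not. Of 10 genes 8 were tested, with *H2-Ab1* the most abundant and *Cd226* below 1 FPKM in all libraries, and with SHP099 4 of them fell, where 2.41% of all genes were called lower. In M-Shp2-/- cells limma called 0 of them (0.0873% of all genes), with 1 at an unadjusted p below 0.05, where 10.5% of all genes were, and 0 by voom. The summed FPKM of this list was 559, 603 and 663 in wild-type, 691, 828 and 228 in M-Shp2-/- and 451, 449 and 948 in SHP099 libraries, so that the sum was lowest in M-Shp2-/- replicate 3 and highest in SHP099 replicate 3. The most abundant members were not called with SHP099, with log2 differences of 0.34 for *H2-Ab1* (adjusted p 0.569) and 0.47 for *H2-Eb1* (adjusted p 0.414). *Folr2*, not called either, was at a mean of 14.0 FPKM in wild-type and 5.90 in SHP099 cells, a log2 difference of −1.05 (adjusted p 0.0907). Every SHP099 library was below every wild-type library for it. In M-Shp2-/- replicate 3 *Folr2* was at 8.75 FPKM, against 4.17 and 4.71 in replicates 1 and 2. *Ly6c2*, not called, had a log2 difference of −0.75 with SHP099 (adjusted p 0.444). *Ccr2*, not tested, went the other way, at 0.155 to 0.506 FPKM in wild-type and 0.671 to 1.56 in SHP099 libraries. *Mrc1*, the mannose receptor, was at 61.5, 43.8 and 43.5 FPKM in wild-type, 59.8, 71.2 and 19.4 in M-Shp2-/- and 10.3, 10.1 and 9.79 in SHP099 libraries, and its log2 difference with SHP099 was −2.18 (adjusted p 0.00289, 0.00123 to 0.0371 over 16 alternatives). *Itgax*, the integrin chain CD11c, was at 162, 77.8 and 54.9 FPKM in wild-type, 199.6, 267 and 13.5 in M-Shp2-/- and 14.9, 19.5 and 20.2 in SHP099 libraries, and its log2 difference was −2.23 (adjusted p 0.0224, 0.0118 to 0.184). *Retnla* had a log2 difference of −2.67 (adjusted p 0.0390, 0.0122 to 0.165) and *Irf4* of −0.84 (adjusted p 0.0490, 0.0277 to 0.193). The calls of *Itgax*, *Retnla* and *Irf4* were lost in 5 of 16, 10 of 16 and 11 of 15 alternatives, all 3 of them without any 1 of the SHP099 replicates, with no filter and in the joint fit of all 9 libraries. Those of *Retnla* and *Irf4* were also lost with the replicate block, with a pseudocount of 5 and without wild-type replicate 1, that of *Retnla* by voom and without the trend, and that of *Irf4* with a pseudocount of 0.1, with equal-sum scaling and without wild-type replicate 2. In *Mrc1* and *Itgax*, as in *Vnn3*, M-Shp2-/- replicate 3 was far below the other libraries of its group. The part of these cells in the level of *Vnn3* was not tested.

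Markers of other cells that a peritoneal wash can hold were also measured. Of 12 neutrophil markers, 7 stayed below 1 FPKM in all 9 libraries, among them *Ly6g*, *Mpo* and *Elane*, and the most abundant were *Csf3r* at 51.5 to 94.2 FPKM and *S100a8* at 34.5 to 95.4 FPKM, the latter highest in M-Shp2-/- replicate 3. The summed FPKM of the neutrophil list was 124, 169 and 159 in wild-type, 105, 105 and 179 in M-Shp2-/- and 112, 114.5 and 152 in SHP099 libraries. The summed FPKM of T cell markers (*Lck* the most abundant) was 2.01, 3.498 and 8.52 in wild-type, 2.04, 1.69 and 5.04 in M-Shp2-/- and 7.39, 5.62 and 5.38 in SHP099 libraries, so that M-Shp2-/- replicate 3 was the highest of its group. That of mesothelial markers (*Wt1* the most abundant) was 3.25, 9.19 and 2.001 in wild-type, 5.92, 2.25 and 11.5 in M-Shp2-/- and 8.11, 6.39 and 3.03 in SHP099 libraries. The neutrophil and the mesothelial sums were both highest of the 9 libraries in M-Shp2-/- replicate 3. In the neutrophil, T cell and mesothelial lists, 4, 1 and 2 genes were tested and limma called 0 in either comparison with wild type, with 0 at an unadjusted p below 0.05 and 0 by voom. The part of these cells in the level of *Vnn3* was not tested.

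The sums of the mast cell, dendritic cell and eosinophil lists, small in every library, were lower in the SHP099 libraries, as *Vnn3* was. The mast cell sum was 6.10, 4.76 and 6.01 FPKM in wild-type, 2.76, 3.19 and 1.60 in M-Shp2-/- and 0.675, 0.564 and 0.970 in SHP099 libraries, with *Kit* the most abundant of 6 genes and *Cpa3*, *Mcpt4* and *Fcer1a* below 1 FPKM in all libraries. The dendritic cell sum was 6.14, 3.95 and 3.78 FPKM in wild-type, 7.40, 5.25 and 3.56 in M-Shp2-/- and 1.498, 1.03 and 1.35 in SHP099 libraries, with *Ccr7* the most abundant of 5 genes and *Flt3*, *Xcr1* and *Clec9a* below 1 FPKM in all libraries. The eosinophil sum was at most 0.930 FPKM, with all 5 genes below 1 FPKM in all libraries and 0 of them tested. In the SHP099 libraries that sum was only 0.0368, 0.0205 and 0.0186 FPKM. M-Shp2-/- replicate 3 was the lowest of its group in all 3 of these sums, with *Kit* at 0.176 FPKM against 1.397 and 2.94 in replicates 1 and 2, *Ccr7* at 2.01 against 5.795 and 3.92 and *Siglecf* at 0.0447 against 0.7196 and 0.508. Other members were highest of the group in that library, with *Cma1* at 0.608 FPKM against 0.278 and 0.0225, *Zbtb46* at 1.21 against 1.17 and 0.908 and *Prg2* at 0.236 against 0 and 0. In M-Shp2-/- cells limma called 0 of the 2 genes tested in these lists, *Kit* and *Ccr7*, with 0 at an unadjusted p below 0.05 and 0 by voom. *Ccr7* fell with SHP099, with a log2 difference of −1.52 (adjusted p 0.0192, 0.0146 to 0.107 over 15 alternatives), a call lost with no filter and without any 1 of the SHP099 replicates. *Kit* was not called with SHP099 by limma or by voom. It was at an unadjusted p below 0.05, where 26.7% of all genes were. The part of these cells in the level of *Vnn3* was not tested.

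M-Shp2-/- replicate 3 also stood apart in fibroblast markers and in *Ighm*, an immunoglobulin gene of the B cell list. The summed FPKM of 5 B cell markers was 8.56, 16.1 and 46.3 in wild-type, 30.1, 14.1 and 177 in M-Shp2-/- and 20.2, 13.5 and 27.6 in SHP099 libraries, with *Ighm* the most abundant at 5.97 to 175 FPKM. The value of M-Shp2-/- replicate 3 is almost all *Ighm*, at 175 FPKM against 19.9 and 9.84 in replicates 1 and 2, while *Pax5*, *Ms4a1* and *Cd79b* were lowest of the group there, at 0.342, 0.106 and 0.317 FPKM. Of these markers 2 were tested and limma called 0 in either comparison with wild type, with 0 in M-Shp2-/- and 1 in SHP099 cells at an unadjusted p below 0.05 and 0 called by voom. In these comparisons 10.5% and 26.7% of all genes were at an unadjusted p below 0.05. The summed FPKM of the 6 fibroblast markers was 63.8, 303 and 39.8 in wild-type, 135, 51.4 and 586 in M-Shp2-/- and 361, 137 and 101 in SHP099 libraries, with *Col1a1* the most abundant at 10.0 to 206 FPKM and 0 genes called by limma in either comparison with wild type (0 at an unadjusted p below 0.05 and 0 by voom). In M-Shp2-/- replicate 3, where *Vnn3* was low, the fibroblast sum was 4.35-fold that of the higher of replicates 1 and 2. The part of these cells in the level of *Vnn3* in M-Shp2-/- replicate 3 was not tested.

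**Figure D5:**
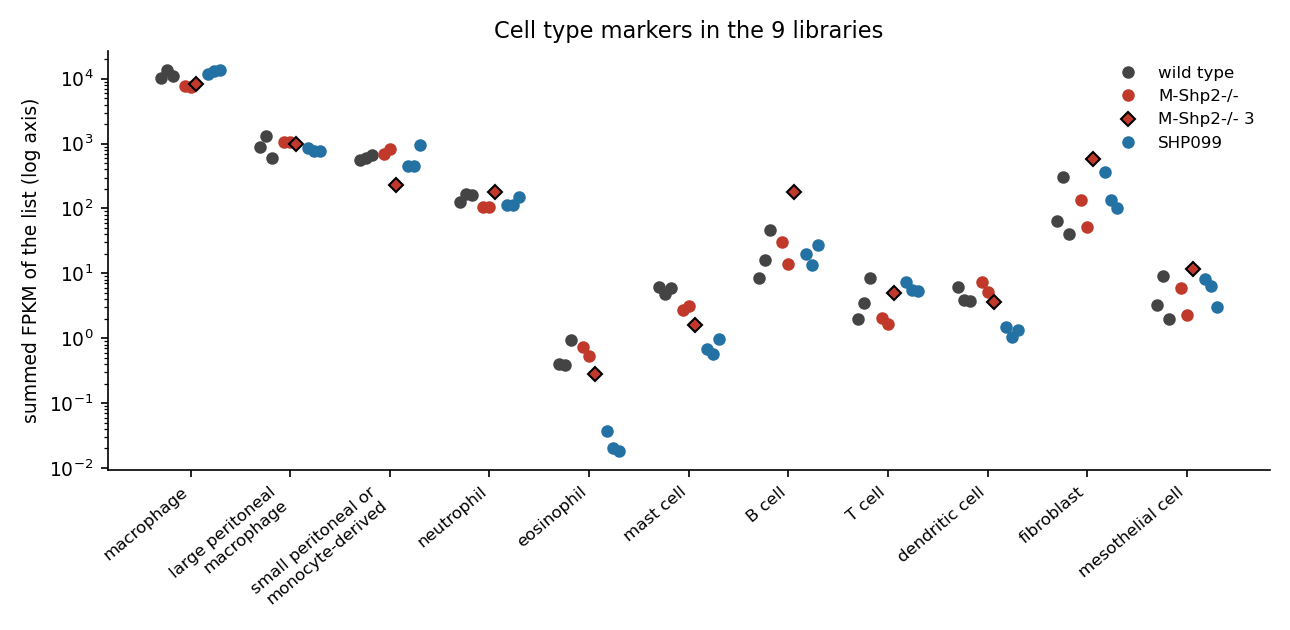
Summed FPKM of each list of cell type markers (vertical axis, log scale) in the 9 libraries, each point 1 library coloured by group, with M-Shp2-/- replicate 3 as a diamond. M-Shp2-/- replicate 3 is the lowest of all libraries in the list of small peritoneal or monocyte-derived macrophages (228) and the highest in those of neutrophils (179), B cells (177, of which *Ighm* 175), fibroblasts (586) and mesothelial cells (11.5).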

How the data were processed

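RNA was sequenced from 9 libraries of mouse peritoneal macrophages, 3 in each of the wild-type, M-Shp2-/- and SHP099 groups, with groups taken from the labels and treatments from the study's methods. By the submitters' processing notes, CASAVA 1.8, HISAT2 2.0.4 and HTSeq 0.9.1 were used, and the authors deposited the values as FPKM. The tool that made FPKM from counts, the annotation, the build and the strand counted are not given in the sources used here. The study's own DESeq comparison on counts was not used, nor was a second table with the spans of assembled genes.

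Gene models came from GENCODE M21 (GRCm38), in which 353 of the 54059 genes are missing, and 27396 genes were at 0 in all libraries. FPKM times the mean transcript length fell within 0.05 of a whole number of reads for 96.3% to 96.7% of low values (those of 50 reads or fewer), where chance gives 10% and the longest transcript at most 66.5%. This gives the depth and the reads quoted, which add up to 98.4% to 98.7% of the depth.

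Comparisons used limma 3.58.1 in R 4.3.3 (lmFit, eBayes with a trend) on log2(FPKM + 1) of the 6 libraries compared, for the 11450 genes whose mean FPKM reached 1, with Benjamini-Hochberg adjustment over them and calls at 0.05. The procedure was tested on simulated data. Tables, coding sequence alignments, motif searches and plots used Python 3.11.15, numpy 2.4.6, pandas 2.3.3, scipy 1.17.1, Biopython 1.88 and matplotlib 3.10.9. A protein comparison was planned, and coding sequences took its place because no protein table was available.

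The vanin genes and the lists were chosen with earlier results of these data known. Genes named are the vanins, *Ptpn11*, of each list the called genes and the 4 with the highest mean FPKM, protein-coding genes within 500 kb, the 5 genes most like *Vnn3*, the 3 most unlike it and the 3 on each side of it in the order of SHP099 differences. *Ado*, *Ppara*, *Pparg*, *Angptl4* and the single marker genes were named after their values were seen. Alternatives were pseudocounts of 0.1 and 5, no filter and a filter at a mean FPKM of 5, median-of-ratios and equal-sum scaling, a prior variance with no trend, a joint fit of the 9 libraries, a block for the replicate number, voom on recovered reads, the study's thresholds (adjusted p up to 0.005, log2 difference of 1 or more) and each library left out. Likeness to *Vnn3* without M-Shp2-/- replicate 3 was added after seeing the data.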

Additional observations from a re-analysis of the deposited data

How the results depend on the processing

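The log2 difference of *Vnn3* between M-Shp2-/- and wild type kept its sign and was not called under any alternative run. It was −0.996 to −0.71 over 10 settings (adjusted p 0.385 to 0.720) and −1.29 to −0.12 with 1 library left out (adjusted p 0.549 to 0.890), with −0.12 reached without M-Shp2-/- replicate 3. Between SHP099 and wild type it was −1.89 with a pseudocount of 5, which shrinks differences of low values by its construction, and −2.34 to −2.12 with 1 library left out. Between M-Shp2-/- and SHP099 it was 0.95 to 2.12 with 1 library left out.

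The replicate number was tried as a block. Same-numbered libraries did not go together (residual r of 0.492, −0.431 and 0.185 between M-Shp2-/- and wild type), and with the block the adjusted p of *Vnn3* was 0.385 within the range above.

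The number of genes called moved more. Between M-Shp2-/- and wild type, 10 became 6 without the trend, 2 with the replicate block, 1 with the study's thresholds and 1 to 8 with 1 library left out. Between SHP099 and wild type, 797 became 74 with no filter, 19 with the study's thresholds and 47 to 1273 with 1 library left out. Between M-Shp2-/- and SHP099, 8 became 3 with no filter, 17 with a mean FPKM of at least 5, 3 with all 9 libraries in one fit, 0 with the block, 14 by voom, 0 with the study's thresholds and 0 to 2277 with 1 library left out. The study's thresholds are stricter by construction, and for the other settings the cause was not tested.

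For *Vnn1*, no difference is given, since it had at most 10 reads in a library and did not pass the filter on low values. Of the settings run, only that with no filter fitted it. With 3 libraries a group, small differences can be missed, and p values measure the spread between samples whose independence the labels do not state.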
